A study of Mus musculus with 4 samples.

Results

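The Spi1 locus was examined for binding of BAP1, HCF1 and OGT in mouse bone marrow derived macrophages. Its members were all peaks of the 3 deposited peak lists that overlap chr2:90870000-91005000 (mm9), a window of 135 kb chosen to hold Spi1, also named Sfpi1, and its upstream flank. The window held 31 of the 59420 peaks in the 3 lists: 7 of 17662 BAP1 peaks, 19 of 31421 HCF1 peaks and 5 of 10337 OGT peaks. The window was chosen by position, with the peaks and scores of these lists already known, so their presence and their scores are given as a description, without a test. The start of transcription given with the window lies near position 90922500 on chromosome 2, and distances below are counted from it, negative towards the upstream flank. No mm9 gene annotation was used here, so that position, and the place of any other start of the gene, were not checked; "upstream" and "downstream" below say only on which side of it a peak lies. The given position may be the start of the longest gene model only. The main promoter may then lie elsewhere in the window, possibly in the region described below as downstream, and "over the start" would not mean over that promoter.

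The cells were macrophages of strain C57BL/6, grown from bone marrow as primary cells in L929 conditioned medium and not treated further. BAP1 was precipitated with anti-FLAG from cells of mice with the genotype BAP1-3X Flag Tagged KI, while HCF1 (anti-HCF1), OGT (anti-OGT1) and the input came from BAP1 WT mice. BAP1 was thus read through a tag and from another genotype than the other proteins, although the name of its deposited list refers to wild-type cells. There was 1 library per protein, the number, age and sex of the mice are not given in the labels, and no value below has a replicate error.

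Spi1 encodes PU.1, a transcription factor of the ETS family that is required to form macrophages and that these cells express throughout their life. Its gene is known to be controlled by a promoter and by a distal enhancer upstream of it, and PU.1 itself binds at both. Where that enhancer lies in the window was not checked, so no region below, including the one called upstream, is assigned to it. BAP1 is a nuclear deubiquitinase that acts on histone H2A. It binds HCF1, a chromatin cofactor recruited by many transcription factors, and HCF1 in turn binds OGT, which attaches O-linked N-acetylglucosamine to HCF1 and other nuclear proteins. In the supplied gene table, which follows GRCm38, Spi1 has 4 RefSeq transcripts and follows Rapsn, Psmc3, Slc39a13 and the noncoding Gm39874, and is followed by Mybpc3, Madd and Nr1h3. Psmc3 is a subunit of the proteasome, Slc39a13 a zinc transporter, Mybpc3 a sarcomere protein and Nr1h3 the sterol-sensing nuclear receptor LXR alpha. The table's coordinates are of another build than the peaks, so no peak was assigned to any of these genes.

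All 3 proteins had a wide, high-scoring peak over the given start, and a further one centred about 15 kb downstream of it. The third region with all 3 proteins lay about 12 kb upstream of the start, where BAP1 and HCF1 scored high in their lists and OGT scored low. The remaining HCF1 peaks scored lower than the highest HCF1 peak of each of these regions, and 10 of them overlapped neither other protein. Beyond 21.34 kb downstream of the start neither BAP1 nor OGT had a peak in the window, and 4 low-scoring HCF1 peaks were left.

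**Figure D1:**
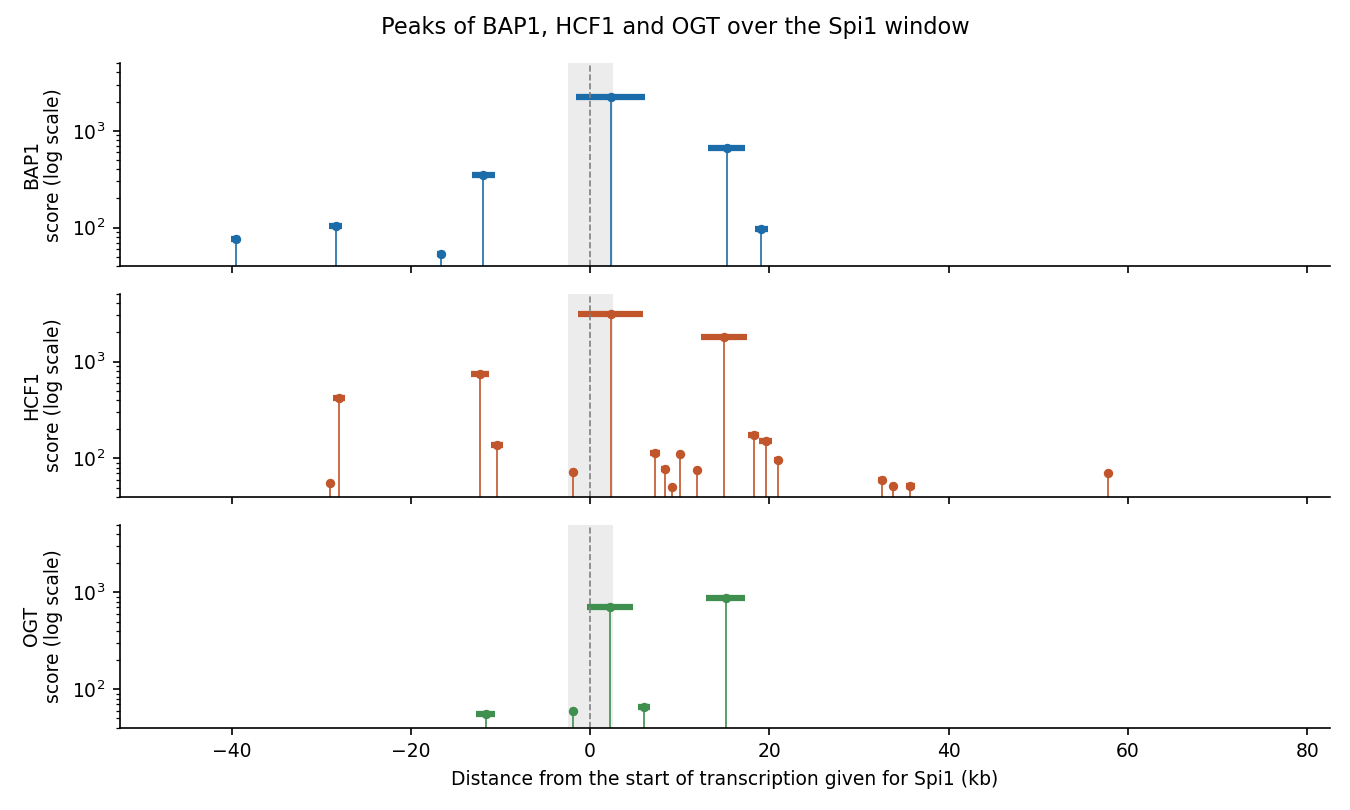
Peaks of BAP1, HCF1 and OGT by distance from the given start of Spi1 (kb, horizontal axis) and by the authors' peak score (vertical axis, log scale); each horizontal bar spans 1 peak, the dot marks its centre and the grey band marks 2.5 kb on either side of the start. The highest bar lies over the start in the BAP1 and HCF1 lists and about 15 kb downstream in the OGT list.

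Each peak carries 1 score that the authors deposited. What the score stands for is stated neither in the labels nor in the lists. Scores were therefore ranked within a list only, and a percentile below is the share of peaks in the same list with an equal or lower score. The lists begin at scores of 50.01, 50 and 50 for BAP1, HCF1 and OGT, and their median scores were 112.81, 104.90 and 86.37. The lists do not give the number of reads, so the depth is unknown and a protein without a peak at a site is not shown to be absent from it.

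Over the given start, the BAP1 peak spanned chr2:90920933-90928671, 7739 bp, with a score of 2238.37. Only 9 of the 17662 BAP1 peaks scored higher, which puts it at the 99.95th percentile. The HCF1 peak there spanned chr2:90921111-90928449, 7339 bp, and scored 3100.00. That value is shared by 44 HCF1 peaks with 6 above it, so its rank can only be given as between 7 and 50. The OGT peak spanned chr2:90922115-90927275, 5161 bp, with a score of 707.28, and 141 OGT peaks scored higher (98.64th percentile). By width these were the 39th widest peak of the BAP1 list, the 51st of the HCF1 list and the 40th of the OGT list. By score the OGT peak ranked 142nd, further down its list than by width.

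The 3 peaks over the start were nested. The OGT peak lay wholly inside the HCF1 peak, and the HCF1 peak wholly inside the BAP1 peak. All 3 shared 5161 bp, which is 100% of the OGT, 70.3% of the HCF1 and 66.7% of the BAP1 peak. Their centres fell within 107 bp of each other, at 2.30 kb for BAP1, 2.28 kb for HCF1 and 2.19 kb for OGT, that is downstream of the given start and not on it. The BAP1, HCF1 and OGT peaks began at -1567, -1389 and -385 bp, so the start itself lay inside all 3. Peaks wider than 5 kb in all 3 lists are rare: of the 5741 merged regions with all 3 proteins in the genome, 17 (0.296%) held one from each list, and this region was among them. The 5 kb limit was chosen after the values were seen, and the OGT peak passed it narrowly. By the width of the merged region, 8211 bp, it ranked 63rd of the 5741.

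**Figure D2:**
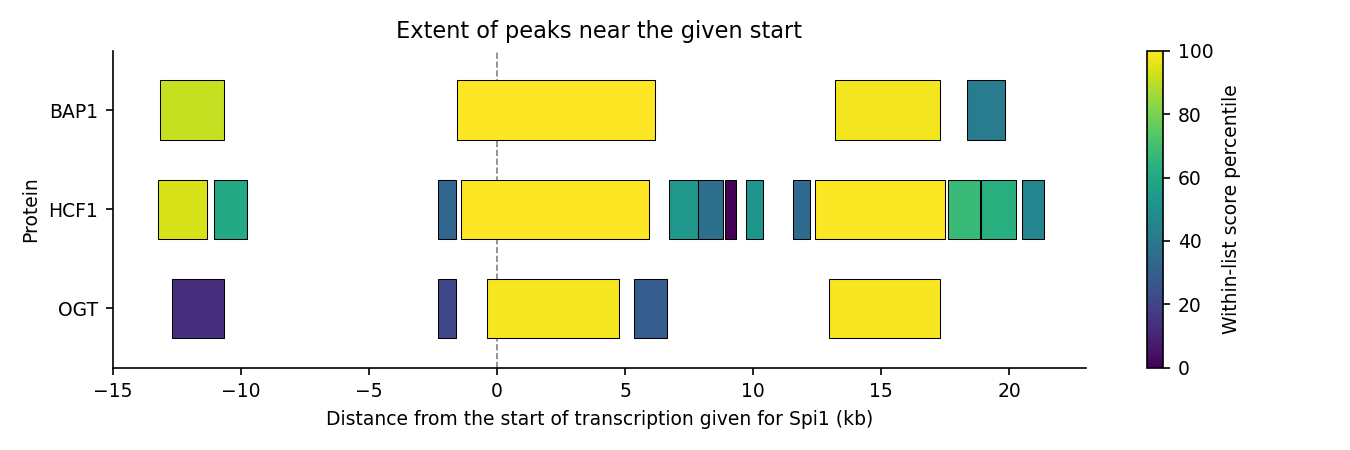
Extent of the peaks between 15 kb upstream and 23 kb downstream of the given start of Spi1 (kb, horizontal axis), 1 row per protein; each box is 1 peak, coloured by its within-list score percentile. The OGT box over the start sits inside the HCF1 box and the HCF1 box inside the BAP1 box, and only HCF1 has boxes between 6.70 and 12.23 kb.

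A small region adjoined the upstream edge of this block. It held an HCF1 peak of 717 bp, chr2:90920195-90920911, with a score of 73.24 (32.97th percentile), and an OGT peak of 681 bp, chr2:90920207-90920887, with a score of 59.59 (21.27th percentile). Their centres were 6 bp apart, the closest pair of any 2 proteins in the window. No BAP1 peak covered this pair, although the wide BAP1 peak began just after the HCF1 peak ended. At the other edge, a second OGT peak of 1282 bp, chr2:90927862-90929143, scored 64.91 (28.96th percentile) and extended past the ends of the BAP1 and HCF1 peaks by 472 and 694 bp. From the small region to this far edge, OGT was thus called as 3 separate peaks, 1 of high and 2 of low score. BAP1 was called as 1, which overlapped the high-scoring OGT peak and the low-scoring one at the far edge.

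The downstream region also had high-scoring peaks of all 3 proteins. BAP1 spanned chr2:90935677-90939795, 4119 bp, with a score of 662.82 (98.10th percentile). HCF1 spanned chr2:90934908-90939975, 5068 bp, with a score of 1787.46 (99.23rd percentile). OGT spanned chr2:90935455-90939796, 4342 bp, with a score of 868.89, and 90 OGT peaks in the genome scored higher (99.13th percentile). Here the BAP1 peak lay wholly inside both others, the right edges of BAP1 and OGT were 1 bp apart, and the shared stretch was 4119 bp. The centres of the 3 peaks fell within 294 bp of each other. From the region over the start to this one the distance between centres was 12.93 kb for BAP1, 12.66 kb for HCF1 and 12.93 kb for OGT. These 2 peaks made up 61.4% of the bases that BAP1 peaks covered in the window, 43.9% for HCF1 and 70.3% for OGT.

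The order of these 2 regions was not the same in the 3 lists. BAP1 scored 2238.37 over the start and 662.82 downstream, and HCF1 scored 3100.00 and 1787.46. OGT scored 707.28 over the start and 868.89 downstream, so the downstream peak was its highest in the window. Over the genome, of 1449 pairs of neighbouring regions with all 3 proteins whose centres lie within 20 kb, 326 (22.5%) had OGT ranked in the opposite order to both BAP1 and HCF1. In 1074 of the pairs BAP1 and HCF1 had the same order, as here, and the 326 were 30.4% of these. With 1 library per protein, the spread of these scores between cultures is unknown.

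**Figure D3:**
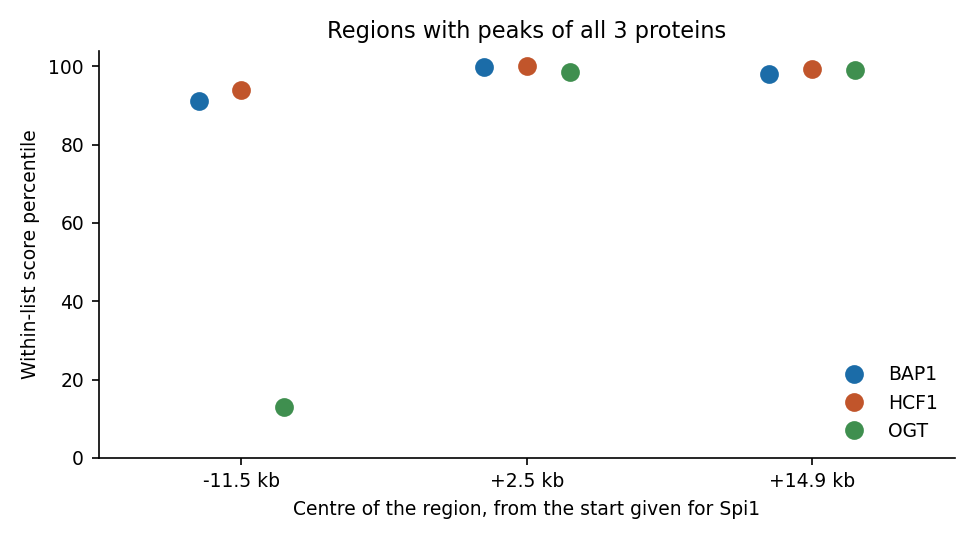
Within-list score percentile (vertical axis) of the highest BAP1, HCF1 and OGT peak in the 3 regions of the window with all 3 proteins, placed by the distance of the region's centre from the given start of Spi1 (horizontal axis). All 3 proteins are above the 98th percentile in the right-hand regions, and OGT is at 13.01 in the left-hand one.

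In the upstream region OGT stood apart from the other proteins. BAP1 spanned chr2:90909341-90911842, 2502 bp, with a score of 351.00 (91.12th percentile). HCF1 had a pair of peaks, chr2:90909255-90911193 with a score of 739.33 (93.90th percentile) and chr2:90911450-90912732 with a score of 139.28 (60.47th percentile), and BAP1 and OGT each overlapped both. The OGT peak, chr2:90909805-90911851, was 2047 bp wide but scored only 55.23 (13.01st percentile), close to the lower limit of its list. Within its width quintile it fell at the 2.13rd percentile. The BAP1 and HCF1 peaks also ranked lower within their width quintiles, BAP1 at the 65.23rd and the HCF1 pair at the 71.51st and 31.67th percentiles. Over the genome, 1042 regions with all 3 proteins had BAP1 and HCF1 both above the 90th percentile. The median OGT percentile in them was 82.14, and 26 of them (2.5%) had OGT as low as here or lower. This region passed that limit narrowly, at 91.12 for BAP1 and 93.90 for HCF1, and regions nearer to it in these percentiles were not compared.

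The rest of the upstream flank held BAP1 and HCF1 but no further OGT peak. A BAP1 peak of 1527 bp, chr2:90893336-90894862, scored 104.60 (46.40th percentile) with its centre at -28.40 kb. It overlapped 2 HCF1 peaks, chr2:90893357-90893691 with a score of 55.77 (12.96th percentile), which is the lowest HCF1 score upstream, and chr2:90893805-90895160 with a score of 420.15 (86.14th percentile). The remaining BAP1 peaks upstream overlapped neither other protein. They were chr2:90882455-90883483 at -39.53 kb, with a score of 76.65 (28.85th percentile), and chr2:90905458-90906354 at -16.59 kb, with a score of 53.72 (5.64th percentile), the lowest BAP1 score in the window. These were narrow, at 1029 and 897 bp, and their median score of 65.19 lay near that of all BAP1 peaks without the other proteins, 70.27 over 4161 peaks.

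HCF1 also had peaks between the region over the start and the downstream region. Between the wide HCF1 peak over the start and the one in the downstream region lay 5 HCF1 peaks, with scores from 50.26 to 114.38, and none of them overlapped BAP1 or OGT. The lowest, chr2:90931412-90931826, had a score of 50.26 (0.75th percentile) and is the lowest HCF1 score in the window. BAP1 had no peak in the 7005 bp between its peaks of the 2 regions. Past the downstream region, 2 more HCF1 peaks with scores of 176.60 and 152.33 (67.36th and 63.13rd percentiles) were bridged by 1 BAP1 peak of 1486 bp, chr2:90940836-90942321, which scored 95.91 (41.71st percentile). A further HCF1 peak without the others, ending at 21.34 kb, scored 95.52. The last 4 HCF1 peaks of the window had centres at 32.60, 33.78, 35.71 and 57.75 kb and scores of 60.03, 51.70, 51.93 and 70.08.

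The HCF1 peaks were closely spaced. Of the 18 gaps between neighbouring HCF1 peaks in the window, 12 were 1 kb or shorter, where 23.9% of all gaps in the HCF1 list are. The shortest was 18 bp. None of the 6 BAP1 gaps (7.5% in the list) and 1 of the 4 OGT gaps (12.3% in the list) was that short. When HCF1 peaks were joined over gaps of at most 1 kb, the peaks around the start formed a cluster of 6 peaks over 12.7 kb, chr2:90920195-90932899, and those around the downstream region a cluster of 5 peaks over 9.8 kb, chr2:90934073-90943840. Of the 23930 HCF1 clusters and single peaks in the genome, 0.493% held at least 6 peaks and 0.999% at least 5. A gap of 1173 bp separated these clusters, and joining over 2 kb gave 1 cluster of 11 peaks over 23.6 kb, the 18th widest of 21860. Whether closely spaced HCF1 peaks are separate sites or 1 broad signal that the peak caller divided was not tested.

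Counted by part, with a peak placed where its centre lies, the 50 kb upstream held 4 BAP1, 4 HCF1 and 1 OGT peaks. The 5 kb around the start held 1 BAP1, 2 HCF1 and 2 OGT peaks, and the 80 kb downstream held 2 BAP1, 13 HCF1 and 2 OGT peaks. All 4 HCF1 peaks upstream and both around the start overlapped another protein, and 10 of the 13 downstream overlapped none, where 45.8% of the whole HCF1 list overlaps none. With 4, 2 and 13 peaks these counts are not read as a difference between the parts. Those 10 had scores from 50.26 to 114.38 with a median of 72.62, near the median of 69.43 over the 14394 such HCF1 peaks of the genome. The wide peaks have centres more than 2 kb from the given start, and the narrow HCF1 and OGT peaks beside them have centres at -1.95 kb. The part around the start is therefore empty when it is narrowed to 1 kb on either side, although all 3 wide peaks still cover the start.

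How often the proteins overlapped was compared with the whole lists. By an overlap of at least 1 bp, HCF1 overlapped 5 of the 7 BAP1 peaks (74.7% of the whole BAP1 list) and all 5 OGT peaks (82.1% of the OGT list). BAP1 overlapped 8 of the 19 HCF1 peaks (47.6% of the HCF1 list) and 4 of the 5 OGT peaks (66.3% of the OGT list). OGT overlapped 3 of the 7 BAP1 peaks (35.2% of the BAP1 list) and 5 of the 19 HCF1 peaks (26.6% of the HCF1 list). Both other proteins overlapped 3 of the 7 BAP1 peaks (33.4% of the list), 4 of the 19 HCF1 peaks (20% of the list) and 4 of the 5 OGT peaks (62.4% of the list). Neither did so at 2 of the 7 BAP1 peaks (23.6% of the list), 10 of the 19 HCF1 peaks (45.8%) and 0 of the 5 OGT peaks (14%). With so few peaks, these counts are not read as a feature of the locus. Merging overlapping peaks gave 18 regions, given here with shares of the 34840 regions of the genome in brackets. All 3 proteins were in 3 regions (16.5%), BAP1 and HCF1 in 2 (20.2%), and HCF1 and OGT in 1 (5.07%). BAP1 was alone in 2 (11.9%) and HCF1 alone in 10 (41.3%). There was none with OGT alone (4.16%) and none with BAP1 and OGT without HCF1 (0.87%). With 18 regions, these counts too are not read as a feature of the locus.

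Distances between the centres of overlapping peaks varied widely. The median distance was 437 bp over the 8 overlapping pairs of BAP1 and HCF1 (22 to 1499 bp), against 195 bp over the whole lists. It was 394 bp over 6 pairs of OGT and HCF1 (6 to 3723 bp) and 173 bp over 4 pairs of OGT and BAP1 (107 to 3701 bp), against 251 and 241 bp over the lists. The distances of 3723 and 3701 bp both belong to the OGT peak of 1282 bp that meets the far edge of the wide HCF1 and BAP1 peaks over the start. Some BAP1 peaks overlapped a pair of HCF1 peaks, and their centre cannot coincide with both. The window's peaks were also wider at the median than their lists: 1527 against 1243 bp (BAP1), 954 against 731 bp (HCF1) and 2047 against 912 bp (OGT). With so few pairs, these distances are not read as a feature of the locus.

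Most peaks of the window did not score high, and the high scores sat in the regions with all 3 proteins. Above the 90th percentile of their list, a limit that 10% of each list passes, were 3 BAP1 peaks (of 7), 3 HCF1 peaks (of 19) and 2 OGT peaks (of 5), and each of these lay in one of those 3 regions. Over the whole lists too, peaks overlapped by both other proteins scored higher, with median percentiles of 73.59 (BAP1), 84.36 (HCF1) and 59.46 (OGT). For peaks overlapped by neither, the medians were 23.77, 29.84 and 23.11. The share of all peaks above the limit that lie in such regions was not counted. The place of the window's high scores is therefore not read as a feature of the locus. The median percentile of the window's peaks was 46.40 for BAP1, 46.06 for HCF1 and 28.96 for OGT. Ranked by the lowest of the 3 percentiles, the region over the start was 25th and the downstream region 38th of the 5741 regions with all 3 proteins, and the upstream region was 5078th.

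The window was dense in peaks when set against a fixed grid of tiles of the same length. The window was chosen with its peaks known, while the grid was laid without regard to peaks. The shares below therefore describe its place among the tiles and are not a test of rarity. Of 7933 other tiles with at least 1 peak, 6.5% held at least 7 BAP1 peaks, 1.36% at least 19 HCF1 peaks and 7.08% at least 5 OGT peaks, with medians of 1, 3 and 1 peaks per tile. By bases covered, 1.17%, 0.618% and 0.845% of tiles reached the 19299 bp of BAP1, 28268 bp of HCF1 and 13513 bp of OGT. At least 3 regions with all 3 proteins were found in 7.92% of tiles. Among the 162 tiles with exactly 7 BAP1 peaks the median was 9 HCF1 and 4 OGT peaks, and 4 of them held at least 19 HCF1 peaks. The HCF1 count depends on how closely spaced peaks are counted: joined over 1 kb, the window held 7 HCF1 clusters or single peaks, and 11.1% of tiles held as many.

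**Figure D4:**
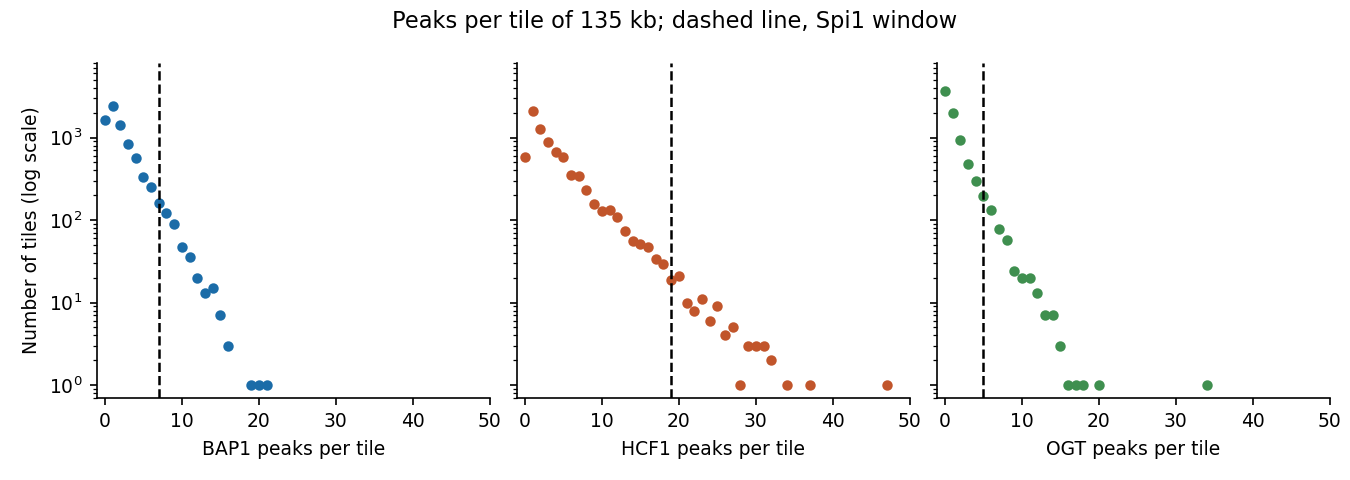
Number of tiles of 135 kb (vertical axis, log scale) by the number of BAP1, HCF1 or OGT peaks they hold (horizontal axis); each dot is 1 count and the dashed line marks the Spi1 window. The window's 7 BAP1, 19 HCF1 and 5 OGT peaks lie right of the median tile, at 1, 3 and 1.

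The 3 tiles named as nearest to the window in their counts covered fewer bases. The tile chr1:172800001-172935000 held 7 BAP1, 18 HCF1 and 5 OGT peaks, and its BAP1 peaks covered 8290 bp. The tile chr19:11340001-11475000 held 7, 20 and 5 peaks, with 14616 bp covered by BAP1. These differ from the window by 1 peak in all. In 7 tiles, these included, the counts differed by at most 2 peaks, and of the others the tile chr6:97335001-97470000 was nearest in median score percentile, with 6, 19 and 4 peaks and 10946 bp. OGT covered 8301, 6258 and 6847 bp in these tiles. The gene content of these tiles was not looked up.

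The window lay further from neighbouring peaks on its upstream side than on the other. The nearest peaks before it were 88.5 kb (BAP1), 87.4 kb (HCF1) and 283.1 kb (OGT) from its first base, while the first peaks inside it began 12.5, 23.4 and 39.8 kb from that base. On the other side the next peaks outside came 16.8, 6.7 and 17.1 kb after its last base, and the last peaks inside ended 62.7, 24.5 and 65.2 kb before it. The peaks around Spi1 were thus followed by 79.4 kb without a BAP1 peak and 82.3 kb without an OGT peak. How common stretches of these lengths are in the whole lists was not examined.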

How the data were processed

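ChIP-seq libraries of BAP1, HCF1 and OGT and an input library were made from fragments size-selected at 175-225 bp and amplified for 18 cycles, per the labels' protocols. The authors deposited 1 peak list per ChIP library, with 1 score per peak. Tools named in the submitters' processing notes are GSNAP and MACS 1.4, with build mm9, with no settings stated there. The input has no list analysed here. A score usually grows with depth and width, so scores were ranked within a list only.

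Starts were read as counted from 0 and are printed counted from 1. Overlap meant at least 1 bp. A peak belonged to the part that holds its centre, and the part around the start reached 2.5 kb to each side. Tiles formed a grid of 135 kb from each chromosome's first base. Overlap, merging, ranking and tile code was tested on simulated data (Python 3.11.15, pandas 2.3.3). Every peak of the window is accounted for, with full values for peaks around the start, in regions with all 3 proteins, and at the extremes of each part, and 3 tiles are named by nearness in counts, with ties settled by median score percentile. The members and lists were chosen with earlier results of these data known. The joining of HCF1 peaks, the 5 kb width limit, the 20 kb limit between neighbouring regions and the 90th percentile limit were chosen after the values were seen. No test was run, since there is 1 library per protein. No sequence was read.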

Additional observations from a re-analysis of the deposited data

How the results depend on the processing

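With 1 kb on either side, the part around the start held 0 BAP1, 0 HCF1 and 0 OGT peaks, and the upstream part 2 OGT peaks. At a score of at least 100, the window kept 4 BAP1, 9 HCF1 and 2 OGT peaks, HCF1 then overlapped 100% of the BAP1 peaks, and BAP1 overlapped 100% of the OGT peaks. With centres within 250 bp, and likewise with peaks trimmed to 200 bp, HCF1 matched 14.3% of the BAP1 peaks and BAP1 matched 5.26% of the HCF1 peaks. With centres within 250 bp all 3 proteins met at 1 HCF1 peak, the one over the start. The share of tiles with fewer peaks than the window was 97.4% for BAP1, 99.4% for HCF1 and 97.1% for OGT when tiles without any peak were included, and 88.9% for HCF1 with its peaks joined over 1 kb, an alternative added after seeing the data. The other 48 of the 66 values recomputed stayed within 1.5 times the count reported, or within the 95% interval of the share. Those intervals rest on 5 to 19 peaks and are wide: OGT peaks on BAP1 at 80% (28.4 to 99.5%) were at 40% when trimmed, OGT peaks on HCF1 went from 100% to 60% with centres, and HCF1 peaks on BAP1 from 42.1% to 26.3% with reciprocal overlap of 50%, so the shares of the window are not stable. Within width quintiles of the list, 23 of the 31 peaks had a lower score percentile and 8 a higher one. The search for short sequence motifs in the promoter of Spi1 was not run. The depth of each library is unknown and limits what a missing peak means. No paired analysis was possible because the series holds 1 library for each protein.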
